A study of Mus musculus with 9 samples.

Results

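The comparison described here set cultured mouse cardiac fibroblasts that had received an adenovirus carrying junctophilin-2 (Ad-JP2) against the same kind of cells given a control adenovirus carrying green fluorescent protein (Ad-GFP). Each group had 3 libraries, taken 72 h after infection. The cells were wild-type primary fibroblasts from hearts of adult male C57BL/6N mice, grown in serum-containing medium after the heart muscle cells had been removed by settling. Both groups had therefore been through heart digestion, plating and an adenoviral infection, and there was no uninfected group. The series also held 3 libraries from cells given a virus with a hairpin against junctophilin-2 (Ad-shJP2), making 9 in all. The genes described were those with at least 1 TPM in 3 or more of the 6 Ad-JP2 and Ad-GFP libraries, 13863 of the 56953 genes in the table. TPM gives a gene's share of the transcripts of a library, counted per length of the message and scaled to a sum of 1000000 over all genes. Of these, 12768 reached 1 TPM in all 6 libraries and 172 reached it in 1 group only. In 154 of these it was reached only in Ad-JP2, and 143 of the 154 were called higher; such genes had to differ to be tested. Leaving out the 154, 13.7% of genes were called higher. Nothing in the sources states that the 3 replicates of a group came from different cultures or animals, and the p-values then describe only the spread between these libraries, which may be technical.

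Junctophilin-2 is a membrane protein that holds the endoplasmic or sarcoplasmic reticulum close to the plasma membrane. In heart muscle cells it keeps L-type calcium channels facing the ryanodine receptors that release stored calcium. Store-operated calcium entry is the other route at such contacts: when the store runs low, STIM proteins in the reticulum membrane open ORAI channels in the plasma membrane. In fibroblasts, calcium that enters this way can activate the phosphatase calcineurin and NFAT transcription factors, which are linked to matrix production and to the contractile myofibroblast state. The title of the study places junctophilin-2 in this pathway in fibroblasts, and the comparison asks which messages differ when more of it is supplied.

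Estimated depth was 36.8 to 45.6 M reads per library (M is 1000000), so that 3 reads on 1000 bases corresponded to 0.0874 to 0.112 TPM. Libraries of a group correlated at 0.991 to 0.994 on the log2 scale across genes, and libraries of different groups at 0.982 to 0.986. The median coefficient of variation was 5.97% in Ad-GFP and 6.58% in Ad-JP2. The cells carried the messages that define fibroblasts: all 10 listed fibroblast markers were measured, and Vim stood at 7192 to 7310 TPM in Ad-GFP and 6910 to 7525 TPM in Ad-JP2. Macrophage messages were present too. Lyz2 stood at 1715 to 1744 TPM in Ad-GFP and 1542 to 1565 TPM in Ad-JP2, and the summed level of the 14 macrophage and leukocyte markers tested was 3387 to 3425 TPM and 3112 to 3168 TPM. Only 2 of 10 cardiomyocyte markers were tested, with Tnnt2 at 23.3 to 28.2 TPM over the 6 libraries and Ttn at 0.001 TPM or less. No erythroid or Schwann cell marker reached the minimum.

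In Ad-JP2, 2018 genes were higher and 259 were lower than in Ad-GFP by limma on log2(TPM + 1) with an adjusted p under 0.05. That is 16.4% of the genes tested, 14.6% higher and 1.87% lower, and higher genes made up 88.6% of the calls. Scaling by median-of-ratios gave 74.1% higher among the calls, and quantile normalization gave 70.5%. The number lower changed when 1 library was left out. It was 102 to 108 whichever Ad-GFP library was left out, 144 without Ad-JP2 replicate 2 and 313 without Ad-JP2 replicate 3. The number higher stayed between 1570 and 1808 without any 1 library. The rises were larger than the falls: 300 genes rose by 2-fold or more on the log2(TPM + 1) scale and 4 fell by as much. The median log2 difference was 0.59 among genes called higher, −0.17 among genes called lower and 0.01 over all genes tested. The genes called higher held 6.90% of all TPM in Ad-GFP and 9.47% in Ad-JP2. The genes called lower were more abundant ones, with a median level of 112 TPM against 10.5 TPM for those called higher. The library values of the groups did not overlap for 32.6% of genes, and for 22.8% every Ad-JP2 library lay above every Ad-GFP library.

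**Figure D1:**
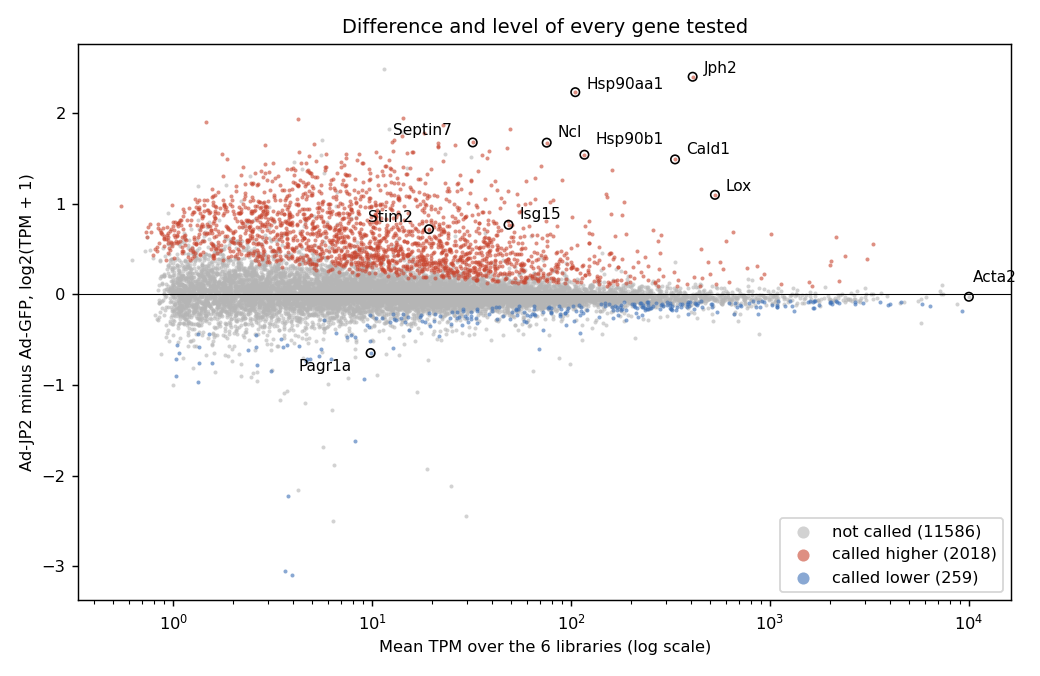
Each point is 1 of 13863 genes, with its mean TPM over the 6 libraries on a log axis and the Ad-JP2 minus Ad-GFP difference in log2(TPM + 1). The 2018 genes called higher spread up to a difference of 2.40 (Jph2), whereas most of the 259 genes called lower lie close below 0 at high TPM.

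Jph2, the gene carried by the virus, showed the largest difference among the genes named by the rule. Its level was 132, 128 and 128 TPM in the 3 Ad-GFP libraries and 737, 691 and 637 TPM in the Ad-JP2 libraries. Every Ad-JP2 library was far above every Ad-GFP library. The means were 129 ± 2.44 and 688 ± 49.9 TPM (SD, n = 3 each), a 5.32-fold difference, with a log2 difference of 2.40 ± 0.05 (SE) and an adjusted p of 2.07e-06 by limma. A two-sided exact permutation test gave p = 0.1, the smallest that 3 against 3 libraries allow. TPM of a gene cannot tell the virus's message from the cell's own, so the fold shows the sum of both. In the Ad-shJP2 libraries, used below beside some genes, Jph2 was at 116.5 to 122.7 TPM. That is only a little below the 127.5 to 132.1 TPM of the Ad-GFP libraries. The other junctophilins stayed below the minimum and were not tested: Jph1 was at 0.29 to 0.74 TPM over the 6 libraries, Jph4 at 0.20 to 0.32 TPM and Jph3 at 0.059 TPM or less.

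A property of the messages moved with the result across the whole transcriptome and stands beside every gene group below. Messages rich in A and T were far more often higher in Ad-JP2: 50.9% of genes under 40% GC content were called higher, 41.9% of those from 40% to 45%, 17.8% from 45% to 50%, 3.62% from 50% to 55% and 0.589% at 60% or more. Median GC content was 44.4% for genes called higher, 43.2% for those at least 2-fold higher, 52.7% for genes called lower and 50.4% for all genes. Longer messages were also more often higher, with a median length of 3376.5 bases among genes called higher, 741 bases among genes called lower and 2002 bases in all. Across genes, which are not independent replicates, Spearman's rho with the log2 difference was −0.43 for GC content and 0.41 for length. The tendency also held inside gene families: in 50 of the 51 lists with at least 10 members the lower-GC members had the higher differences, with a median rho of −0.49. The exception was the nuclear-encoded respiratory chain, at 0.11.

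The same property ordered all 9 libraries. Genes under 45% GC held 10.6% to 10.8% of the TPM of the tested genes in the Ad-GFP libraries, 12.2% to 12.9% in the Ad-JP2 libraries and 8.46% to 8.88% in the Ad-shJP2 libraries, with no overlap between groups. After a correction of each library for GC content and length, 9.87% of genes were called higher and 3.52% lower. These shares stand beside the counts of list members called after the correction below. Of the 2018 genes called higher before it, 1060 still were and 18 were now called lower. Of the 259 called lower, 56 still were. Among the 300 genes at least 2-fold higher, 286 stayed called higher, 83 of them still by 2-fold. Jph2 itself, at 62.0% GC, had a corrected log2 difference of 2.34. Whether GC content, length or a property of the RNA or libraries that goes with them had a part in the differences was not tested. Below, the correction is given where it ended the call of a named gene or moved its difference by more than 1.5 times, and for the lists where it changed the picture. Of the 136 rises named here, 119 stayed called, 38 of them with a difference more than 1.5 times smaller.

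**Figure D2:**
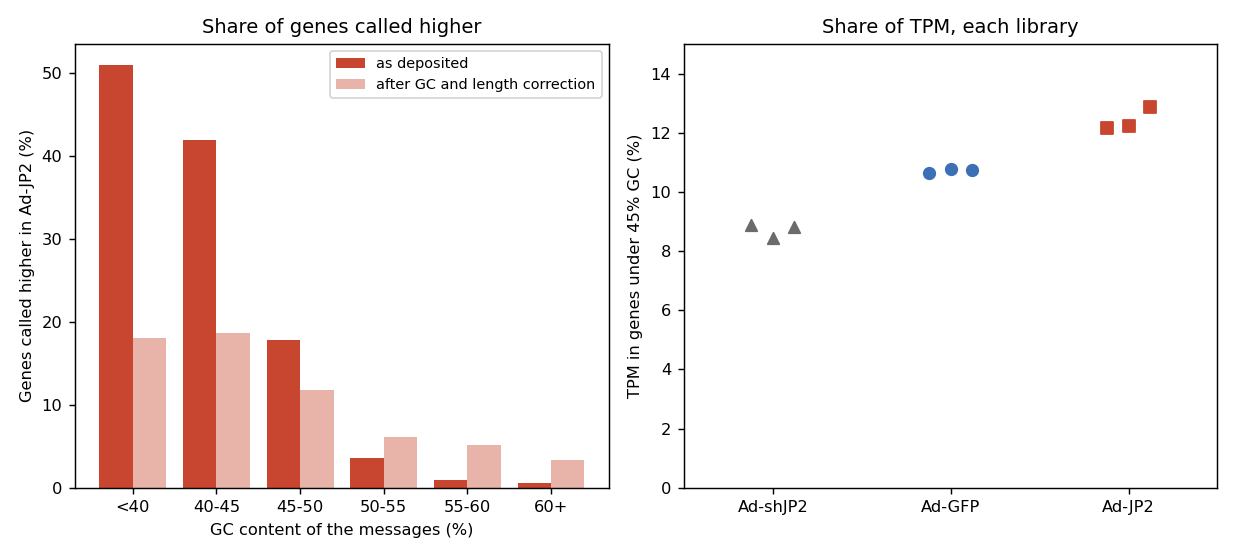
Left, the percentage of genes called higher in Ad-JP2 in 6 bins of GC content, from deposited values and after the GC and length correction: the deposited values run from 50.9% under 40% GC to 0.589% at 60% or more. Right, the percentage of TPM held by genes under 45% GC in each of the 9 libraries, 1 point per library: the Ad-JP2 libraries lie above the Ad-GFP libraries and the Ad-shJP2 libraries below them.

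After Jph2, the largest rise was that of Hsp90aa1, which encodes the stress-inducible form of the cytosolic chaperone HSP90. It stood at 38.2, 36.1 and 34.5 TPM in Ad-GFP and at 178, 166 and 176 TPM in Ad-JP2, a 4.79-fold difference with a log2 difference of 2.23 ± 0.05 (SE), adjusted p 2.07e-06 by limma, and 2.09 after the correction. Its constitutive partner Hsp90ab1 was at 1255, 1281 and 1261 TPM against 1246, 1265 and 1244 TPM, which overlapped, and was not called. Hsp90aa1 was also the lowest in the third group, at 11.9 to 16.4 TPM in the Ad-shJP2 libraries. Its GC content was 44.9% and that of Hsp90ab1 51.5%.

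The other leading rises were messages for nuclear, nucleolar, protein-turnover and cytoskeletal proteins. Ncl, the nucleolar protein nucleolin, went from 33.7, 36.7 and 36.0 TPM to 111, 114 and 121 TPM, a 3.25-fold rise. Septin7, the core septin of the filaments that organise the cortex, went from 13.6, 16.05 and 14.6 TPM to 47.6, 47.3 and 52.98 TPM, 3.34-fold. Ddx3x, an RNA helicase used in translation, went from 22.3, 21.1 and 25.9 TPM to 73.1, 75.5 and 68.4 TPM, 3.13-fold. In all 3 genes the Ad-JP2 libraries lay at more than 2 times any Ad-GFP library.

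Other rises of similar size were those of Zc3h15 (3.80-fold), Ipo7, a nuclear import receptor (3.73-fold), Usp16, a deubiquitinase that acts on histone H2A (3.59-fold), Matr3, a nuclear matrix RNA-binding protein (3.55-fold), and Tpp2, a large cytosolic peptidase (3.51-fold). Dynlt3, a dynein light chain, rose 3.41-fold, and Zeb2, a zinc finger repressor known from epithelial-mesenchymal transition, 3.38-fold. Acadsb, a mitochondrial acyl-CoA dehydrogenase, rose 3.32-fold, and Eprs, a tRNA synthetase, and Tax1bp1, an autophagy receptor, both 3.31-fold. Scel, Strn3, a subunit of a phosphatase complex, Nop58, a box C/D snoRNP protein, and Phldb2, a microtubule anchor at the cell cortex, rose 3.27-, 3.24-, 3.22- and 3.09-fold. The 18 rises named other than Jph2 had a GC content between 37.4% and 47.0%, 15 of them under 45%. All 19 were still called after the correction, with log2 differences of 1.05 to 2.34 in place of 1.55 to 2.40. In the Ad-shJP2 libraries, Septin7 was at 6.04 to 6.96 TPM, Ncl at 19.1 to 19.9 TPM and Ddx3x at 8.35 to 10.5 TPM, below the Ad-GFP libraries.

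The falls were smaller. The largest among well-expressed named genes was that of Pagr1a, from 9.97, 13.7 and 12.9 TPM to 7.78, 8.30 and 6.21 TPM, a log2 difference of −0.65 ± 0.14 (SE), adjusted p 0.0207 by limma. Slc35d2, a nucleotide sugar transporter, fell by 0.47 on the log2 scale, Izumo4 by 0.45, Hacl1, a peroxisomal enzyme of fatty acid alpha-oxidation, by 0.43, and Ccl6, a chemokine made by macrophages, by 0.34. Mis18a, a centromere assembly factor, Sap18, Syngr1, Pafah2 and Zpr1 fell by 0.31 to 0.34. Of these 10 falls, 6 were still called after the correction, and Pagr1a, Izumo4, Syngr1 and Zpr1 were not. Hacl1, Ccl6 and Pafah2 kept the call with any 1 library left out, whereas the other 7 lost it at least once, with an adjusted p by limma of up to 0.0761 for Pagr1a (without Ad-GFP replicate 3), 0.105 for Slc35d2 (without Ad-JP2 replicate 2) and 0.107 for Izumo4 (without Ad-JP2 replicate 3).

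**Figure D3:**
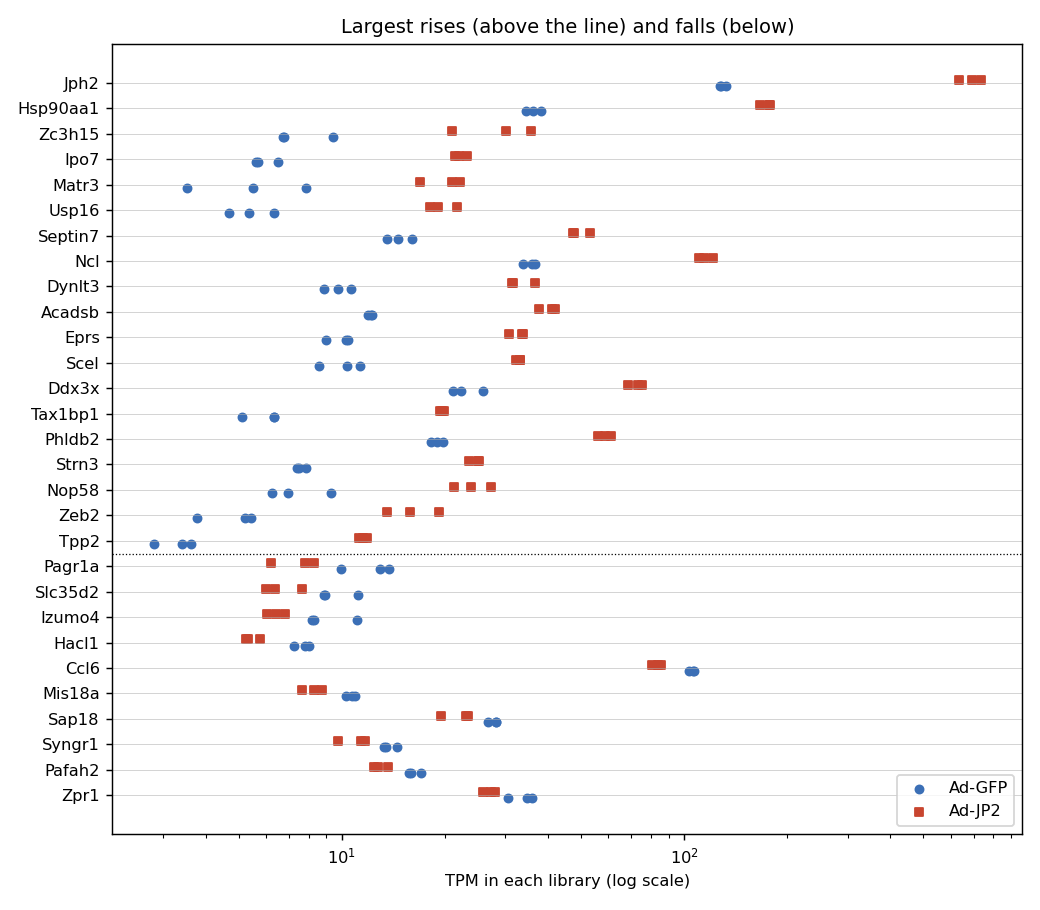
TPM of 19 of the largest rises and 10 largest falls in each of the 3 Ad-GFP (circles) and 3 Ad-JP2 (squares) libraries, on a log axis. Groups do not overlap for any of these genes, which the rule for naming required, and the rises span 3.09- to 5.32-fold.

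Among the genes of store-operated calcium entry, the core pair did not pass the test. Stim1, the store sensor, was at 45.6, 44.4 and 41.7 TPM in Ad-GFP and 45.2, 46.6 and 47.5 TPM in Ad-JP2, and Orai1, the channel subunit, was at 32.1, 29.9 and 30.8 TPM against 30.6, 31.3 and 29.6 TPM. Their log2 differences were 0.08 and −0.02. In contrast Stim2, the sensor that responds to small losses of store calcium, rose from 13.3, 13.8 and 15.8 TPM to 27.5, 24.04 and 21.3 TPM, a log2 difference of 0.72 ± 0.10 (SE), adjusted p 0.0032 by limma, and 0.63 after the correction. Homer1, a scaffold that links receptors and channels to stores, rose by 0.90, Trpc1, a cation channel subunit, by 0.89 and Asph, the locus of junctate and junctin, by 0.49. Corrected differences were 0.56 for Homer1 and 0.20 for Asph, both called. These 4 were the members called higher of 14 tested, 28.6% against 14.6% of all genes, and none was called lower. All 4 had under 50% GC, as did 5 of the 14. The median of the list was 0.02.

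Of 17 tested genes of contacts between the reticulum and the plasma membrane, 4 were higher, 23.5% against 14.6% of all genes, and none lower. Besides Jph2 these were Sacm1l, a phosphoinositide phosphatase (5.72, 5.64 and 5.58 TPM to 15.9, 14.6 and 15.7 TPM), Esyt2, a tether (15.7, 15.7 and 15.6 TPM to 39.3, 37.0 and 38.3 TPM), and Osbpl8, a lipid exchanger (log2 difference 0.48). Corrected log2 differences were 0.84 for Sacm1l, 0.86 for Esyt2 and 0.12, not called, for Osbpl8, whose adjusted p by limma without Ad-GFP replicate 1 was 0.101.

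Calcium pumps, exchangers, release channels and buffers numbered 29, with 10 higher, 34.5% against 14.6% of all genes, and 1 lower. They included Atp2b1, a plasma membrane calcium pump (log2 difference 1.09), Micu3, a regulator of mitochondrial calcium uptake (0.77), Canx, the calcium-binding ER chaperone calnexin (0.66), Itpr2, an IP3 receptor (0.58), and Atp2c1, a Golgi pump (0.47). After the correction the list had 3 of 29 higher and 3 lower, against 9.87% and 3.52% of all genes. Atp2b1 (0.68) and Canx (0.32) stayed called at smaller corrected differences, whereas Micu3 (0.38) and Atp2c1 (0.24) were no longer called. Micu3 had passed the minimum only in Ad-JP2. Without it, 9 of 28 rose before the correction, 32.1% against 13.7% of all genes counted this way. Of 19 calcineurin and NFAT genes 8 rose, 42.1% against 14.6% of all genes, and none fell. The catalytic subunits Ppp3ca and Ppp3cb rose by 0.95 and 0.70, Nfat5 by 0.81 and Gsk3b, a kinase that opposes NFAT, by 0.77. After the correction 4 members were called higher, among them Ppp3ca, Gsk3b (0.47) and Ppp3cb (0.24), Nfat5 was no longer called (0.30), and the corrected list median was 0.00.

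Of 37 cytosolic heat shock chaperones and cochaperones, 7 rose and none fell, 18.9% against 14.6% of all genes called higher, with a median of 0.01. After Hsp90aa1 came Dnajb4 (log2 difference 0.65), Chordc1 (0.57), Hspa4 (0.57) and St13 (0.30). After the correction 3 of the 37 were higher, against 9.87% of all genes. Dnajb4 stayed called at 0.39, while Chordc1 (0.14) and St13 (0.09) did not. Hspa1a, the inducible HSP70, was at 3.37, 4.19 and 3.55 TPM against 3.61, 3.38 and 3.62 TPM and was not called. Of 18 chaperonin and mitochondrial chaperone genes, 1 was called, Hspd1, at 0.32.

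In the endoplasmic reticulum, 10 of 35 chaperone and unfolded protein response genes rose, 28.6% against 14.6% of all genes, and none fell. Hsp90b1, the ER form of HSP90, went from 57.4, 59.8 and 60.3 TPM to 165, 172 and 186 TPM, a log2 difference of 1.54 ± 0.05 (SE), adjusted p 8.75e-06 by limma, and 1.25 after the correction. Hspa5, the ER HSP70 known as BiP, went from 424, 428 and 426 TPM to 535, 548 and 559 TPM, a log2 difference of 0.36. Edem3, which trims mannose from misfolded glycoproteins, rose by 1.52, Hspa13 by 0.71, Canx by 0.66 and Atf6, a sensor of the unfolded protein response, by 0.59. Ddit3, Atf4 and Xbp1, transcription factors of the same response, had values of −0.04, 0.03 and −0.05 and were not called. All 10 rising genes had under 50% GC, and 7 members of the list were called higher after the correction. Atf6 stayed called at a corrected 0.21, while Hspa13 (0.36) was no longer called.

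The promoters of these ER chaperone genes are shown because the ER stress element, CCAAT followed by any 9 bases and CCACG, was present in several of them. In the RefSeq promoter table of build GRCm38.p6, the 250 bases before the start site were searched on both strands. The element was found for 0.172% of the tested genes with a window, for 8 of 30 ER chaperone genes and for 4 of the 8 called higher that had a window. It was also found for 4 of the 22 with a window that were not called higher. A match is a run of letters and not a shown site. Capitals mark the element, and each stretch reads 5′ to 3′ on the gene's strand.

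Hsp90b1, chr10:86705503-86705581 (−): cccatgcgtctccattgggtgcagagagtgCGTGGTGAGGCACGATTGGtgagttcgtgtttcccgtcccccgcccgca
Hspa5, chr2:34771995-34772073 (+): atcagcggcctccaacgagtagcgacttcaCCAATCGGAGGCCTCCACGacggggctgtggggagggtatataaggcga
Canx, chr11:50325770-50325848 (−): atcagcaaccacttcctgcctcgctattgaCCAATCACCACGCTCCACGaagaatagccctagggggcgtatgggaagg
Dnajc3, chr14:118937797-118937875 (+): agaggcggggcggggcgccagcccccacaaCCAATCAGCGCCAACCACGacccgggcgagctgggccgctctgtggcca

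Dnajc3, which encodes a luminal cochaperone, rose from 26.1, 25.3 and 23.9 TPM to 36.9, 36.2 and 36.3 TPM, a log2 difference of 0.52 that was 0.12 and not called after the correction. The heat shock element (GAA, TTC and GAA, or TTC, GAA and TTC, with 2 bases between) was found for 0.474% of tested genes and for 1 of 31 cytosolic chaperone genes with a window. Among these it was found for 0 of the 5 called higher and for 1 of the 26 not called higher. Hsp90aa1 had no window and was not searched.

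Lists of nuclear structure and RNA handling differed in their shares of calls. Nucleoporins had 3 of 19 higher, 15.8%, and zinc finger genes of the Zfp series 36 of 212, 17.0%, near the 14.6% of all genes. Without 10 Zfp genes that passed the minimum only in Ad-JP2, 26 of 202 rose, 12.9% against 13.7% of all genes counted this way. Of 27 cohesin, condensin and chromatin remodelling genes, 17 rose, 63.0% against 14.6% of all genes, and none fell, with a median of 0.63. Cohesin, a ring that holds DNA loops and sister chromatids, was represented by Smc1a (2.39, 2.38 and 2.09 TPM to 7.47, 8.43 and 8.45 TPM) and Rad21 (28.3, 26.6 and 28.1 TPM to 37.4, 38.8 and 39.2 TPM), with its regulators Pds5a (log2 difference 1.52) and Wapl (1.36). Smarca5, a chromatin remodeler, rose by 1.21. The list had a median GC content of 45.2%, and 11 members were called higher after the correction, with Wapl at 0.90, Smarca5 at 0.67 and Rad21 at 0.27. Of the 27, 4 passed the minimum only in Ad-JP2, and 13 of the remaining 23 rose.

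Of 27 nucleolar and nuclear matrix genes, 14 rose, 51.9% against 14.6% of all genes, and none fell, with a median of 0.36. Besides Ncl, Matr3 and Nop58 they included Dkc1, the pseudouridine synthase dyskerin (log2 difference 1.21), and Scaf11 (1.01). After the correction 11 were higher and the median was 0.23. Without 1 that passed the minimum only in Ad-JP2, 13 of 26 rose before the correction. Among 49 DEAD- and DEAH-box helicases 14 rose, 28.6%, led by Ddx3x, Ddx46 (1.28), Ddx6 (1.22) and Dhx36 (1.20). Without 2 that passed the minimum only in Ad-JP2, 12 of 47 rose. After the correction 7 members were called higher, with Ddx6 at 0.77 and Dhx36 at 0.55. Of 23 importins, exportins and transportins 10 rose, 43.5%, among them Ipo7, Xpo1, the main nuclear export receptor (1.34), Kpna3 (1.34) and Kpna4 (1.02). After the correction 4 members were called higher, with Kpna3 at 0.83, Xpo1 at 0.81 and Kpna4 at 0.57. In that family rho with GC content was −0.91. Of 32 hnRNP and SR protein genes 12 rose, 37.5%, with Hnrnpu at 1.01, and 1 fell. After the correction the hnRNP and SR list had 4 of 32 higher and 4 lower, against 9.87% and 3.52% of all genes, with Hnrnpu at 0.60.

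Of 43 ubiquitin-specific proteases 17 rose, 39.5% against 14.6% of all genes, and none fell. The rises included Usp16, Usp9x (4.66, 3.00 and 2.58 TPM to 9.47, 11.5 and 10.5 TPM), Usp32 (log2 difference 1.29), Usp8 (1.13) and Usp15 (1.12). Without 1 that passed the minimum only in Ad-JP2, 16 of 42 rose. After the correction 12 members were called higher, with Usp9x at 0.80. Of 52 proteasome subunits and regulators, 5 rose, 9.62% against 14.6% of all genes, and 3 fell, including Psmd2 by 0.22. The activator Psme4 rose by 1.48 and the remaining rises were 0.37 or less. The median proteasome gene was at −0.04, and the corrected value of Psme4 was 0.97.

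Matrix genes divided between a few strong rises and abundant collagens that moved little. Of 23 collagens 6 rose, 26.1% against 14.6% of all genes, and none fell. Col8a1, a short-chain collagen, went from 87.9, 90.3 and 89.8 TPM to 234, 232 and 235.4 TPM, a log2 difference of 1.38 ± 0.03 (SE), adjusted p 2.07e-06 by limma. Col11a1 rose by 0.84, Col28a1 by 0.57, Col4a5 by 0.47 and Col12a1 by 0.39. Col1a1, the main fibrillar chain, went from 1581, 1591 and 1539 TPM to 1713, 1703 and 1624 TPM, a difference of 0.10 that was called with an adjusted p of 0.0493 by limma, and 0.169 without Ad-GFP replicate 3. Col3a1 was at 689, 706 and 705 TPM against 702, 715 and 712 TPM and was not called. After the correction the collagens had 5 higher and 6 lower, Col3a1 and Col1a2 among the latter, Col11a1 and Col12a1 stayed called at 0.53 and 0.14, and the direction for Col1a1 turned to −0.03, not called.

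Of 26 genes of collagen hydroxylation and crosslinking, 2 rose, 7.69% against 14.6% of all genes, and 1 fell. Lox, the enzyme that crosslinks collagen and elastin, went from 341, 332 and 336 TPM to 746, 744 and 675 TPM, a log2 difference of 1.10. Plod2, the lysyl hydroxylase that sets pyridinoline crosslinks, went from 17.9, 20.3 and 19.3 TPM to 54.9, 56.5 and 57.6 TPM, a difference of 1.51. Ppib, a prolyl isomerase, fell by 0.09, with a corrected value of 0.02 and an adjusted p by limma of 0.119 without Ad-GFP replicate 1. Corrected values were 0.72 for Lox and 1.15 for Plod2. Of 39 other matrix genes 10 rose, 25.6% against 14.6% of all genes. They included Postn, periostin (88.6, 89.5 and 89.1 TPM to 154, 159 and 159 TPM), Vcan, versican (log2 difference 0.84), Has2 (0.90), Lama2 (0.72) and Ccn4 (0.67). Corrected values were 0.46 for Postn, 0.55 for Vcan and 0.38 for Lama2, all called, and 0.42, not called, for Has2, which had passed the minimum only in Ad-JP2. Without Has2, 9 of 38 rose before the correction, 23.7% against 13.7% of all genes counted this way. Of 27 matrix proteases and inhibitors 8 rose, 29.6% against 14.6% of all genes, and 7 of 26 without 1 that passed the minimum only in Ad-JP2. The rises were led by Adamts12 (1.16), Adamts5 (0.90) and Adamts1 (0.66), with Timp3 at 0.59. The corrected value of Adamts5 was 0.37.

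Most contractile genes, the usual readout of the myofibroblast state, were not called. Of 26 tested, 5 rose, 19.2% against 14.6% of all genes, 1 fell, and the median was 0.00. Acta2, smooth muscle actin, was at 10102, 10155 and 10026 TPM in Ad-GFP and 9912, 9994 and 9844 TPM in Ad-JP2, a difference of −0.03 that was not called. Tagln and Cnn1 were both at −0.08 and not called. Cald1, caldesmon, which binds actin and restrains myosin, went from 173, 175 and 176 TPM to 502, 502 and 472 TPM, a log2 difference of 1.49 ± 0.03 (SE), adjusted p 2.07e-06 by limma, and 1.31 after the correction. Ppp1r12a, the targeting subunit of myosin phosphatase, rose by 1.20 and Palld, palladin, by 0.46. Myl12b, a myosin light chain, fell by 0.20, with an adjusted p by limma of 0.0939 without Ad-JP2 replicate 1, and was not called after the correction.

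Of 34 TGF-beta and BMP genes 7 rose, 20.6% against 14.6% of all genes, and 2 fell. Tgfbr1, the type I receptor, went from 2.44, 2.30 and 1.84 TPM to 6.71, 8.13 and 6.997 TPM, and Tgfb2, a ligand, from 17.5, 16.3 and 18.5 TPM to 28.0, 27.7 and 30.1 TPM. Inhba and Bmpr1a both rose by 0.70, with corrected values of 0.40, called, and 0.35, not called. Tgfb1 had a difference of −0.04 and Tgfbr2 of 0.06, neither called. Smad3, a signal transducer, fell by 0.26, with an adjusted p by limma of 0.131 without Ad-GFP replicate 1.

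Of 24 Hippo pathway genes 12 rose and none fell, with a median of 0.18. The kinases Stk3 and Lats1, which restrain YAP, rose by 1.57 and 1.09, the transcription factor Tead1 by 1.06 (30.0, 29.3 and 26.1 TPM to 63.4, 62.9 and 55.1 TPM), the coactivator Wwtr1, also called TAZ, by 0.81 and Yap1 by 0.18. Ccn1 and Ccn2, targets of YAP, were at −0.00 and 0.00 and not called, while the listed targets Cavin2 and Crim1 rose by 1.42 and 0.81. After the correction 9 of the 24 were higher and 1 lower, against 9.87% and 3.52% of all genes, with Lats1 at 0.66 and Wwtr1 at 0.46. Among integrins and focal adhesion genes 8 of 30 rose, 26.7% against 14.6% of all genes. They were led by Lims1 (1.33) and Itgav (0.99), the alpha subunit of the integrin that activates latent TGF-beta.

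Of 25 growth and angiogenic factors and receptors 7 rose, 28.0% against 14.6% of all genes, and none fell. Vegfa, the main vascular endothelial growth factor, went from 76.7, 77.6 and 74.4 TPM to 101, 98.5 and 100.2 TPM, a log2 difference of 0.39, and 0.40 after the correction, at a GC content of 54.7%. Pdgfd rose by 0.96, Nrp1, a coreceptor for vascular endothelial growth factor, by 0.63 and Adamts1, which can trap that factor, by 0.66. The corrected value of Pdgfd was 0.59. Fgf7 passed the minimum only in Ad-JP2, so that its difference of 0.98 is a description, and it was 0.55 and not called after the correction. Without Fgf7, 6 of 24 rose before the correction, 25.0% against 13.7% of all genes counted this way.

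Interferon-stimulated genes, which are switched on by interferons and by sensors of viral nucleic acid, were called more often than any GC bin of the transcriptome. Of 59 listed, 40 were tested, 24 rose and 1 fell, where 14.6% of all genes rose, and in 33 of the 40 every Ad-JP2 library lay above every Ad-GFP library, against 22.8% of all genes. The median difference was 0.34, and it was 0.34 after the correction, when 25 were higher and none lower. Ifit1, Ifi207 and Parp14 passed the minimum only in Ad-JP2, and Ifi207 was no longer called after the correction. Of the remaining 37 members 21 rose, in 30 every Ad-JP2 library lay above every Ad-GFP library, and the median was 0.27. At 50% GC or more 8 of 17 members rose, 47.1%, against 2.41% of all tested genes at 50% or more. Under 50% GC 16 of 23 rose, 69.6%, against 28.0% of all tested genes under 50%. The part of GC content in these rises was not tested. Members called higher numbered 23 under median-of-ratios scaling and 17 under quantile normalization. The 19 members not tested were low, with Mx1 at 0.76 TPM or less, Rsad2 at 0.57 TPM or less and Cxcl10 at 1.46 TPM or less.

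The rises in this group were modest. Isg15, a ubiquitin-like modifier, went from 37.3, 34.9 and 34.6 TPM to 61.5, 62.5 and 59.98 TPM, a log2 difference of 0.77 ± 0.04 (SE), adjusted p 5.02e-05 by limma, and 0.91 after the correction. Ifit2 and Ifit1, which bind foreign RNA, rose by 1.31 and 0.94, from 1.69, 2.35 and 1.70 TPM and from 0.54, 0.38 and 0.43 TPM. Zbp1, a sensor of Z-form nucleic acid, rose by 0.82, Irf7, the factor that amplifies type I interferon, by 0.52, Bst2, tetherin, from 116, 119.9 and 122.6 TPM to 152, 151 and 153 TPM, and Ifitm3, which blocks viral entry, by 0.22. Ifi204 rose by 1.21 and Trim30a by 0.94, with corrected values of 0.80 and 0.50, and Ifi27 fell by 0.12, with a corrected value of 0.02 and an adjusted p by limma of 0.153 without Ad-GFP replicate 1. Of 23 nucleic acid sensors and signalling genes 10 rose, 43.5% against 14.6% of all genes, and none fell. The rises were led by Ifih1, the RNA sensor MDA5 (1.08), Trim56 (0.97), Tlr3 (0.92), Tlr7 (0.87) and Eif2ak2, the kinase PKR (0.79). After the correction 8 were higher, and Tlr3 (0.56) and Tlr7 (0.47) were no longer called. Tlr3 had passed the minimum only in Ad-JP2, and without it 9 of 22 rose before the correction, 40.9% against 13.7% of all genes counted this way. The adjusted p of Tlr7 by limma was 0.0944 without Ad-GFP replicate 3. In the Ad-shJP2 libraries Isg15 stood far higher, at 325 to 351 TPM. Both groups received an adenovirus, and the dose given in the labels was the same, so differences between the virus preparations and effects of the carried gene cannot be told apart.

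**Figure D4:**
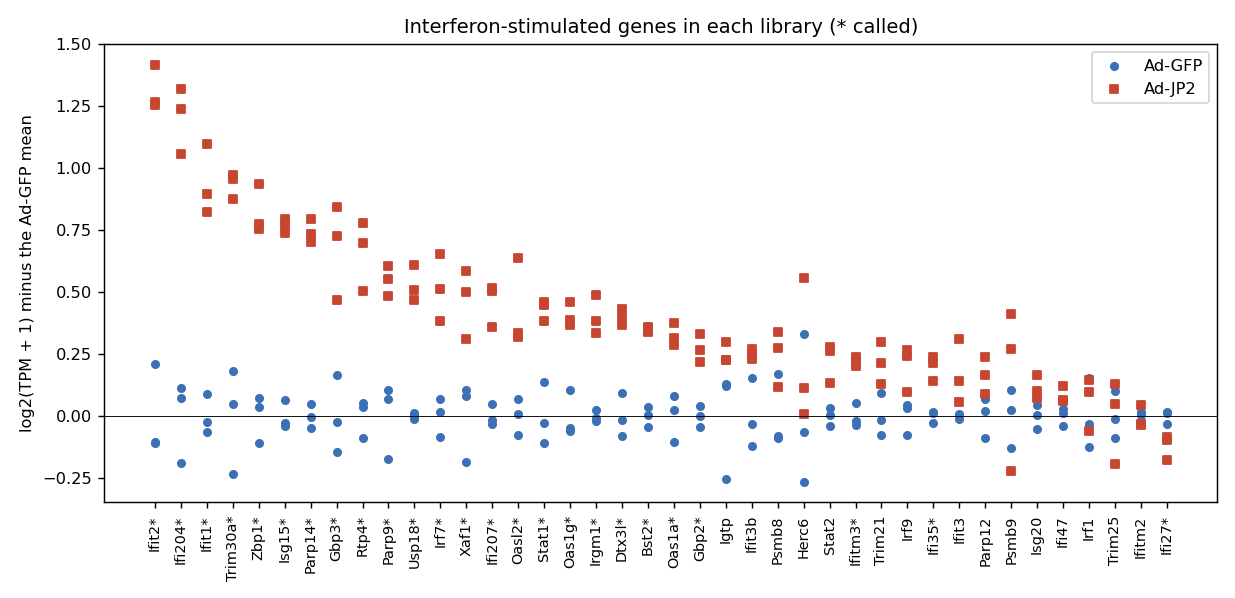
Each of the 40 tested interferon-stimulated genes is shown in each library as log2(TPM + 1) minus the Ad-GFP mean, with 3 circles for Ad-GFP and 3 squares for Ad-JP2. For 33 genes all squares lie above all circles, and a star marks the 24 genes called higher and Ifi27, called lower.

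The interferon-stimulated response element, 2 copies of GAAA set 2 bases apart, was found before the start site of 15 of the 32 tested interferon-stimulated genes with a window in the RefSeq table, and of 10 of the 17 called higher, against 3.16% of tested genes and 4.07% of all genes called higher. Without the 3 members that passed the minimum only in Ad-JP2, the called members had it in 8 of 15. It was found for 5 of the 15 members not called higher. The stretches below show the element in capitals for 5 rising genes in which it occurs in overlapping or repeated copies. On the other strand it reads as TTTC, 2 bases and TTTC.

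Isg15, chr4:156200845-156200926 (−): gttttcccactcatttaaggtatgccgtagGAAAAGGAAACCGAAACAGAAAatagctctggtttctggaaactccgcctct
Ifit1, chr19:34640755-34640843 (+): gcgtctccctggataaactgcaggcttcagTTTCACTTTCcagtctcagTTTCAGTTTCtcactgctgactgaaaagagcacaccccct
Bst2, chr8:71537557-71537632 (−): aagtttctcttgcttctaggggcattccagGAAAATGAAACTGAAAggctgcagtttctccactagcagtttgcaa
Gbp3, chr3:142559969-142560043 (+): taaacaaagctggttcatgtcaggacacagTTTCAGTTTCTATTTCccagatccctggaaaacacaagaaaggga
Irgm1, chr11:48871421-48871480 (−): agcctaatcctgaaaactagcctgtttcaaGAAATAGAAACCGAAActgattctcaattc

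Cell cycle genes were mixed. Of 41 DNA replication genes 4 rose, 9.76% against 14.6% of all genes, with Rfc1 at 1.31, and none fell. Without 1 that passed the minimum only in Ad-JP2, 3 of 40 rose. Of 26 mitosis and cytokinesis genes 10 rose, 38.5% against 14.6% of all genes, and 1 fell. Without 1 that passed the minimum only in Ad-JP2, 9 of 25 rose. Top2a, topoisomerase II, rose by 1.45 and Anln, anillin, from 10.4, 9.67 and 11.3 TPM to 28.1, 29.2 and 29.2 TPM, whereas Cdk1, the mitotic kinase, fell from 109, 115 and 115 TPM to 98.6, 100.5 and 98.1 TPM. After the correction 6 mitosis genes were higher and 1 lower, and Cdk1, at −0.11, was not called. Mki67, a proliferation marker encoded by a long message, was at only 0.17 to 0.31 TPM and was not tested.

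Mitochondrial messages went in different directions by genome. Of 12 mitochondrially encoded genes 8 rose, 66.7%, and none fell, with a median of 0.39 and a median GC content of 37.4%. mt-Nd5 went from 123.3, 121 and 122 TPM to 247, 254 and 246 TPM, a difference of 1.02 that was 0.53 after the correction. After the correction 4 were higher, 2 lower and the median was 0.01. Of 81 nuclear-encoded respiratory chain genes none rose and 11 fell, 13.6%, with a median of −0.07. Of 89 cytosolic ribosomal proteins none rose and 14 fell, 15.7%, also with a median of −0.07. Over all genes 14.6% rose and 1.87% fell. The falls in both lists depended on scaling and on which libraries were kept. Without 1 library, 4 to 15 respiratory genes and 2 to 22 ribosomal genes fell, the lowest counts without an Ad-GFP library and the highest without Ad-JP2 replicate 3. Under median-of-ratios scaling 30 and 24 fell, under quantile normalization 9 and 9, and after the correction the ribosomal list had 9 higher and 4 lower and the respiratory list 6 higher and 9 lower. The largest called falls in the lists were those of Ndufa1, a complex I subunit, by 0.23 and Rpl31 by 0.29, neither of them called after the correction.

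**Figure D5:**
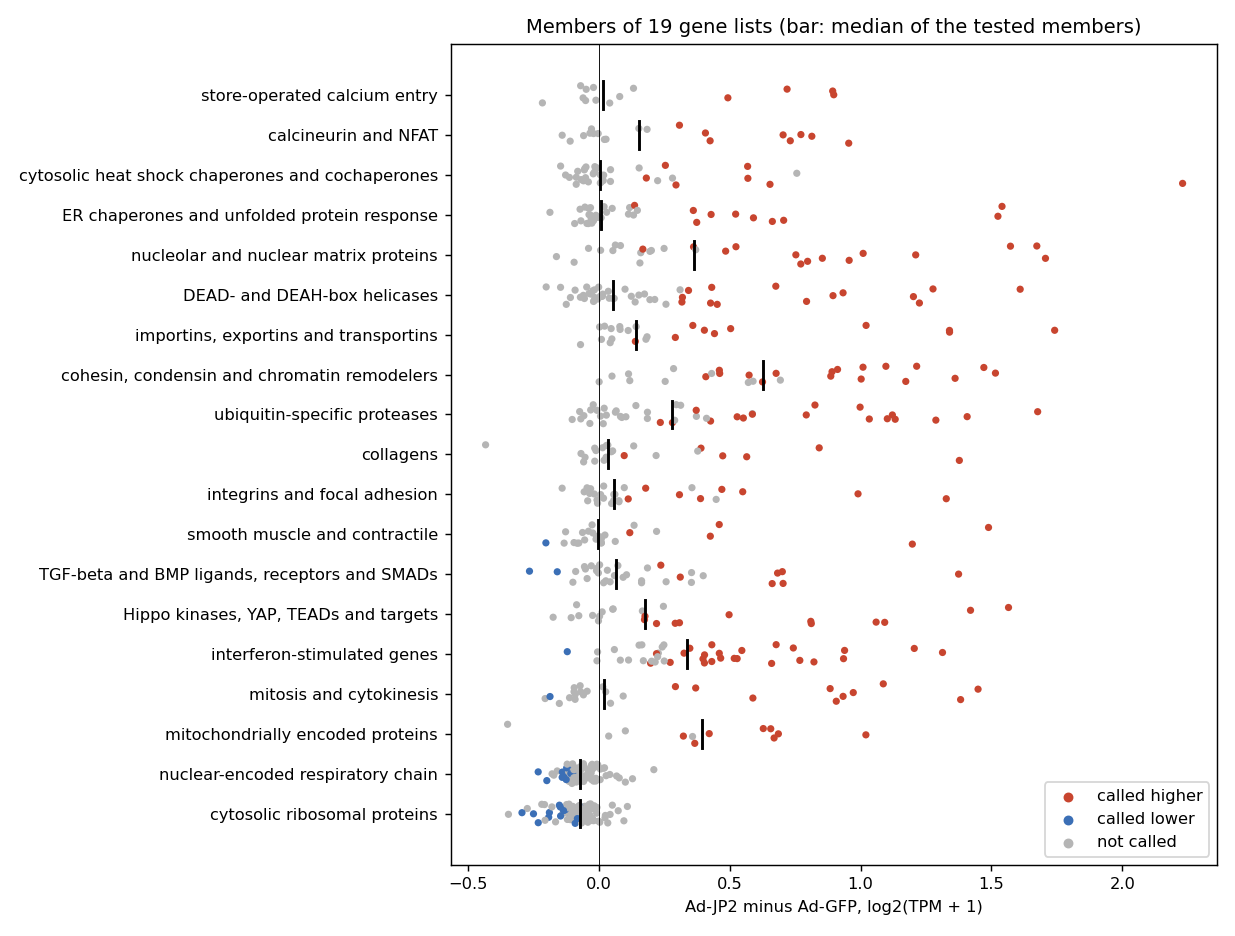
Log2 difference between Ad-JP2 and Ad-GFP for the tested members of 19 gene lists, 1 point per gene, coloured by call, with a bar at each list's median. Most lists center near 0 with a tail of members called higher, while the medians of the chromatin, nucleolar, mitochondrially encoded and interferon lists lie between 0.34 and 0.63.

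Genes that rose despite a high GC content were looked at after their values were seen. There were 172 genes called higher at 50% GC or more, of which 133 stayed called after the correction. On the log2(TPM + 1) scale, 6 of the 172 were at least 2-fold higher. Besides Jph2 the leading ones with a gene name included Tcf20, a transcriptional coregulator (3.81, 3.40 and 3.01 TPM to 9.73, 9.06 and 8.01 TPM), and Sox4, a developmental transcription factor (17.0, 15.5 and 14.6 TPM to 34.5, 34.2 and 30.1 TPM). Trim56 and Zbp1 of the antiviral lists were next, followed by Crim1, Megf10, Shox2, Samd4 and Isg15. Ccnd2, cyclin D2, rose from 199, 196 and 188 TPM to 331, 326 and 305 TPM, and Larp1, which controls translation of ribosomal protein messages, from 20.9, 21.04 and 21.1 TPM to 36.8, 36.8 and 34.2 TPM. In these 4 genes with values the groups did not overlap, and the corrected log2 differences were 1.03 for Tcf20, 0.93 for Sox4, 0.60 for Ccnd2 and 0.60 for Larp1.

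Some marker genes of other cell types also differed. Of 14 macrophage and leukocyte markers tested, Mrc1 and Ptprc rose by 1.22 and 0.94, whereas Lyz2, Tyrobp, C1qc and C1qa fell by 0.15, 0.15, 0.11 and 0.09. The share lower was 28.6%, against 1.87% of all genes. Ptprc had passed the minimum only in Ad-JP2, and 1 of the remaining 13 rose, 7.69% against 13.7% of all genes counted this way. Mrc1 and Ptprc had GC contents of 41.3% and 40.0%, and the 4 that fell 48.3% to 59.5%. Corrected values were −0.10 for Lyz2, which stayed called, 0.72 and 0.42 for Mrc1 and Ptprc, both called, and 0.01 to 0.04 for Tyrobp, C1qc and C1qa, which were not called. Without 1 Ad-GFP library, 1 or 2 of the 4 falls kept the call. The T cell gene Cd3e was at 0 in all 6 libraries. In bulk RNA, fewer cells of a type and less RNA per cell cannot be told apart. Fibroblast markers had 4 of 10 higher, 40.0% against 14.6% of all genes, namely Ddr2 (0.55), Dcn (0.30), Pdgfra (0.18) and Col1a1, and none lower. Corrected values were 0.36 for Ddr2, called, and −0.06 for Dcn and 0.04 for Pdgfra, not called. After the correction 1 of the 10 fibroblast markers was higher and 1 lower. Endothelial markers had 1 of 8 lower, Vwf, which was under 2 TPM in every library and not called after the correction, and no pericyte or epicardial marker was called. The part of these cells in the interferon, matrix or chemokine values above was not tested.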

How the data were processed

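RNA of mouse cardiac fibroblasts was sequenced, and each library was deposited as TPM per gene, scaled to a sum of 1000000. Build GRCm39 and the programs Salmon, DRAGEN and DESeq2 are listed, per the submitters' processing notes, without version or role. Gene lengths in the table are those the authors deposited. Every column of values matched 1 library by name. No pair of libraries held identical values.

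Samples were grouped by the label of the virus. Genes with at least 1 TPM in 3 of the 6 libraries were tested with limma 3.58.1 (R 4.3.3) on log2(TPM + 1), with a mean-variance trend and Benjamini-Hochberg adjustment at 0.05. This scale understates changes of low genes. Folds of single genes are ratios of mean TPM. Counts of genes at least 2-fold higher or lower instead take a difference of at least 1 in log2(TPM + 1). A symbol on several lines was read from the line with the highest mean. The deposited table has no counts. Depth was estimated from the steps between low TPM values, which came within 0.1 of whole reads for 95.5% of low genes in Ad-GFP replicate 3 and 41.7% to 61.5% in the others, so it is approximate. GC content came from GENCODE M21 transcripts (build GRCm38) for 13703 genes. The correction subtracted from each library a robust fit (MASS 7.3.60.0.1) on splines of GC content and length with 5 degrees of freedom. Single values were compared with exact permutation tests in scipy 1.17.1. The fit was tested on simulated data.

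Genes were named by rule: the junctophilins, the 20 largest rises and 10 largest falls with a mean of at least 5 TPM, no overlap between groups and a gene name, and up to 5 called members of each of 57 lists. A result that the rule would name is not reported here. Other names were chosen after their values were seen. Members and lists were chosen with earlier results of these data known. Alternatives covered the filter, pseudocount, scaling, variance trend, libraries in the fit, replicate block, GC correction and omission of each library.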

Additional observations from a re-analysis of the deposited data

How the results depend on the processing

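The 2277 calls, 2018 of them higher, stayed within 1.5 times of these counts under each alternative but one: the replicate block with the GC and length correction gave 1160 calls, 899 higher. The count of 259 lower genes was less stable. It was 482 after the GC and length correction, 469 with TMM scaling (trimmed mean of M-values), 643 by median-of-ratios, 630 by quantile normalization, 158 with no filter, 111 without the variance trend, 235 with all 9 libraries fitted, and 102 to 313 with 1 library left out. The count of genes at least 2-fold higher, 300, was 85 after the correction, 84 with the block added to it, 600 with a pseudocount of 0.1 and 64 with a pseudocount of 5. The scalings moved the median of all genes by −0.04 (median-of-ratios), −0.02 (TMM) and −0.07 (quantile) on the log2 scale.

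Of 177 genes named, 159 were called, and 110 of these kept direction and call under every alternative. Leaving out 1 library ended the call of 4 of 136 named rises (Col1a1, Ifi207, Osbpl8, Tlr7) and 16 of 23 named falls. The correction reversed 9 named genes, with or without the block: C1qa (0.039), C1qc (0.0219), Tyrobp (0.00922), Ppib (0.0229), Ifi27 (0.0155), Col1a1 (−0.0257), Dcn (−0.0555), Col1a2 (−0.173) and Col3a1 (−0.191). The cause was not tested.

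The replicate block alone gave 1943 calls, 1762 higher and 181 lower. Deviations from the group means of the same-numbered libraries correlated at −0.06, 0.02 and −0.10 across genes, and only Ad-JP2 replicate 2, at 0.02, correlated best with its own number, so the numbers were not taken to pair the libraries. With 3 libraries a group and only TPM deposited, the counting error of low genes could not be modelled.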
